A study of Mus musculus with 22 samples.

Results

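Linker histones (H1f0, H1f2, H1f3 and H1f4) and the histone variants H2ax and H2az1 were followed through 4 groups of sorted mouse bone marrow cells. The members were all probe sets of the MOE430A and MOE430B arrays that carry 1 of these 6 gene symbols or an older name of the same gene. Of the 6 genes, 4 had a probe set, and these genes held 9 probe sets, all of them on chip A, among 40405 probe sets tested in the series. A probe set is a group of short probes for 1 transcript, and its signal is given here on a scale on which every array has a trimmed mean of 500. H1f0 and H1f3 were named by no probe set and were not analysed here. H2az1 had 4 probe sets, of which 2 were also assigned to the pseudogene Gm8203, so 7 of the 9 name a single gene. All 9 passed the filter on low signals, which asked for a signal above 100 on at least 2 of the 11 arrays. The genes were chosen by their measured signals in these samples, in comparisons of the OGCsort groups as far as can be told, so their differences between the OGCsort groups are given as a description, with no test.

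Bone marrow cells were stained for CD45, the phosphatase that marks white blood cells, and for Sca1, an antigen of blood stem cells and of some mature lymphocytes, and were sorted. In the set called OGCsort the sign for CD45 comes first and that for Sca1 second, which gave 3 samples of -/- cells (sorts 4, 5 and 8), 3 of +/- cells (sorts 1, 7 and 9) and 3 of +/+ cells (sorts 1, 5 and 6), at an estimated purity of 90%. A second set, CPGSE, gave 2 samples of +/+ cells (sorts 4 and 6) at a purity of 95 to 98%, with haematopoietic stem cells named as the source. The cells carried no genetic change or treatment that the labels name, and strain, age and sex are not given there. Whether each sample is a separate animal is not stated in the labels, and p-values here cover no more than the spread among these samples, while the number of arrays limits the precision.

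DNA is wound around an octamer of core histones, and a linker histone H1 closes each nucleosome and packs neighbouring nucleosomes together. H1f2, H1f3 and H1f4 are replication-dependent linker histones, made in S phase together with the core histones, while H1f0 is the replacement linker histone of cells that leave the cell cycle. H2AX is the H2A variant that is phosphorylated beside DNA breaks, and H2A.Z, the product of H2az1, sits at promoters and is exchanged by dedicated remodellers. In the marrow, the red cell lineage condenses its chromatin until the nucleus is expelled, and its precursors divide up to a late stage.

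The promoters of the replication-dependent linker histone genes H1f2, H1f3 and H1f4 carry a common set of elements, and those of H1f2 and H1f4 are shown beside that of H2az1 because these genes were measured and their start regions differ. In the sequences, from RefSeq on the GRCm38.p6 assembly and written in the direction of transcription, capitals mark matches on either strand to the H1 box AAACACA, the CCAAT box (ATTGG where it lies on the opposite strand) and the TATA box core TATATA, which reads the same on both strands. The H1f2 window is chr13:23738557-23738856 on the plus strand, the H1f4 window chr13:23622509-23622808 on the minus strand and the H2az1 window chr3:137864237-137864536 on the plus strand. Each runs from 250 bases before the annotated start to 50 bases after it.
H1f2: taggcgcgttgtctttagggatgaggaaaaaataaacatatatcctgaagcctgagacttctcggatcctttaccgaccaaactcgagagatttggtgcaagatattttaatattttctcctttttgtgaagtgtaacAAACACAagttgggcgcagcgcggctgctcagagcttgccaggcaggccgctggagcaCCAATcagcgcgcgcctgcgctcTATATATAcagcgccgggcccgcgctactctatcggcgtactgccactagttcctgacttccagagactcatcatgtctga
H1f4: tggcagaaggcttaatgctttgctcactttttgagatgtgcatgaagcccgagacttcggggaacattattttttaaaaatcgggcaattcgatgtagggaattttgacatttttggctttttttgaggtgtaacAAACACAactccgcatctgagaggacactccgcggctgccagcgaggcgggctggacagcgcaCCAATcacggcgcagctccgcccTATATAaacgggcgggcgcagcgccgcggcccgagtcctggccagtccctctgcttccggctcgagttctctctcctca
H2az1: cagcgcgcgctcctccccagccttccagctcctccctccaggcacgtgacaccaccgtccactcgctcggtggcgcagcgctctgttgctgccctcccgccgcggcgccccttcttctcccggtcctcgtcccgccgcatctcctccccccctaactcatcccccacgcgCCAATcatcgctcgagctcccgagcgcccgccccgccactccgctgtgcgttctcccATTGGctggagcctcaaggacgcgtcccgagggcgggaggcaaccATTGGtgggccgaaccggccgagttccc

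H1f2 held the H1 box 112 bases before its start, the CCAAT box 54 bases before it and overlapping TATA cores 31 and 29 bases before it. H1f4 held the same 3 elements in the same order, at 115, 52 and 29 bases before the start. In H1f3, which had no probe set, they lay at 122, 51 and 28 bases. Of 32851 promoter windows of the same length, 7.18% held the H1 box letters, 37.4% a CCAAT box and 5.67% the TATA core, and 92 windows, or 0.280%, held all 3. H2az1 held the CCAAT letters 3 times, of which 1 was 80 bases before the start on the coding strand, and it held neither of the other motifs. H1f0 held none of the 3. A letter match describes the sequence and does not show a bound site. H1f3 and H1f4 lie between core histone genes in the RefSeq order, H1f3 between H4c6 and H3c6, and H1f4 between H2bc6 and H2ac6. H1f2 lies between Hfe and the core histone gene H3c3.

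**Figure D1:**
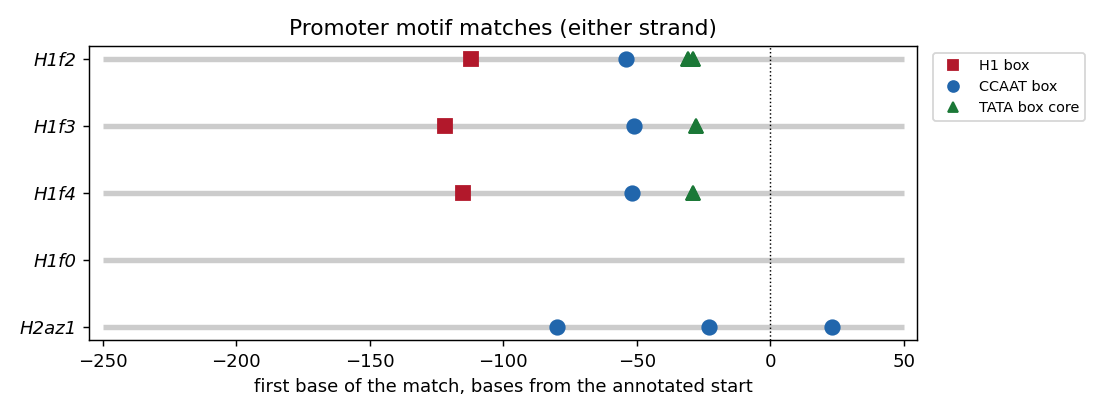
Positions of the H1 box, CCAAT box and TATA core in the promoter windows of 5 genes, in bases from the annotated start (dotted line), with 1 grey line per gene. H1f2, H1f3 and H1f4 share the 3 elements in 1 order, H2az1 shows CCAAT boxes only and H1f0 shows none.

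The sort itself was visible in the signals. Ptprc, the gene of CD45, ranged from 149 to 1142 in -/- and was at 7213 or more in every other sample. The annotation used here gives no probe set the name Ly6a, the gene of Sca1, so the sort for Sca1 was not checked here. The -/- cells were rich in red cell transcripts: all 11 measured erythroid markers were over 100 in every -/- sample, and their summed signal was 223371 to 353023 there, against 5852 to 11350 across the other 3 groups. They were also rich in proliferation transcripts, with Mki67, a marker of cycling cells, at 16811 to 32329 in -/- and 1807 to 4828 elsewhere. Neutrophil markers, 8 of them measured, summed to 95852 to 391380 in +/-, against 2003 to 20048 in -/-, where Elane was under 100 in every sample, 6441 to 31074 in OGCsort +/+ and 11481 to 121327 in CPGSE. Stem and progenitor markers, 7 of them measured, summed to 1613 to 2039 in -/- and 1745 to 2270 in +/-, and to 5263 to 6328 in OGCsort +/+ and 4618 to 4960 in CPGSE. B cell markers summed to 1594 to 17132 in -/-, 17822 to 45234.5 in +/- and 29862.5 to 33454 in OGCsort +/+. T and NK cell markers gave 751 to 955, 2597 to 5104 and 7393 to 8097 in these groups. Monocyte and macrophage markers gave 1422 to 6392, 37921 to 72822 and 46248 to 53008. In CPGSE these lists gave, in turn, 22505 to 24807, 6912 to 9018 and 67450 to 75323. Sample -/- 4 stood apart from the other -/- samples by its Ptprc signal, the highest of that group. On chip A the 3′ over 5′ signal ratio of Gapdh was 8.17 to 11.8 in -/-, 13.8 to 19.6 in +/-, 9.14 to 24.8 in OGCsort +/+ and 14.4 to 15.0 in CPGSE. Whether this ratio reflects RNA integrity or the labelling reaction cannot be told here. How far cell type, RNA integrity and array run entered the histone values was not tested. In RNA of sorted bulk cells, fewer cells of a type and less RNA per cell cannot be told apart.

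H1f2, a linker histone, was high in both groups without Sca1 and low in both groups with it on its brighter probe sets. The sums of the neutrophil, T and NK cell, stem and progenitor, and stromal and endothelial markers also differed between +/- and OGCsort +/+ without overlap. So did the summed signal of genes of G2 and mitosis. The part of these sums in this result was not tested. On its brightest probe set, 1416101_a_at, the signals were 10234, 9496 and 11962 in -/- (sorts 4, 5 and 8), 9708, 9315 and 7827 in +/- (sorts 1, 7 and 9), 3384, 1777 and 2241 in OGCsort +/+ (sorts 1, 5 and 6), and 2151 and 2635 in CPGSE +/+ (sorts 4 and 6). The -/- and +/- samples overlapped each other, and every one of them lay above every +/+ sample of either set. The means were 10564 ± 1266 (SD, n = 3) for -/-, 8950 ± 992 (n = 3) for +/-, 2468 ± 827 (n = 3) for the OGCsort +/+ samples and 2393 ± 342 (n = 2) for the CPGSE samples. On the scale of log2(signal + 32), OGCsort +/+ minus -/- was -2.13 (SE 0.25), a 4.37-fold lower level, and OGCsort +/+ minus +/- was -1.89 (SE 0.25), 3.71-fold lower. The difference of +/- minus -/- was -0.24 (SE 0.25), smaller than its standard error. CPGSE +/+ differed from the same OGCsort -/- samples by -2.13 (SE 0.27) and from the same +/- samples by -1.89 (SE 0.27). Only the CPGSE side is new here, since those OGCsort samples served in choosing the genes, as far as can be told.

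The other probe sets of H1f2 followed this order less clearly. Probe set 1436994_a_at read 2497, 2760 and 4407 in -/-, 2730, 1957 and 1849 in +/-, 1843, 755 and 642 in OGCsort +/+, and 797 and 808 in CPGSE. Here too every sample without Sca1 lay above every +/+ sample, though OGCsort +/+ 1, at 1843, lay just under the lowest +/- value of 1849. The difference was -1.66 (SE 0.35) for OGCsort +/+ minus -/- and -1.12 (SE 0.35) for +/+ minus +/-, against -0.53 (SE 0.35) for +/- minus -/-. The dim probe set 1438204_at read 708, 88 and 601 in -/-, 244, 370 and 240 in +/-, 356, 193 and 201 in OGCsort +/+, and 130 and 176 in CPGSE. Its 3 OGCsort groups overlapped, and the difference of +/+ minus -/- of -0.49 (SE 0.57) went from -1.33 without -/- 5 to -0.02 without -/- 4. Across the 11 samples the brighter pair of H1f2 probe sets ran together (Pearson's r = 0.93 on the log2 scale), while 1438204_at ran with them at 0.47 and 0.51. These values share the samples and the array scaling.

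H1f4, a further replication-dependent linker histone, was near the lower end of the signal range. Its single probe set, 1422398_at, read 25, 108 and 144 in -/-, 26, 135 and 6 in +/-, 15, 17 and 7 in OGCsort +/+, and 7 and 5 in CPGSE. Only 3 arrays were over 100, of which 2 were -/- and 1 was +/-, and every +/+ sample of both sets was under 100. No fold is given for it.

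**Figure D2:**
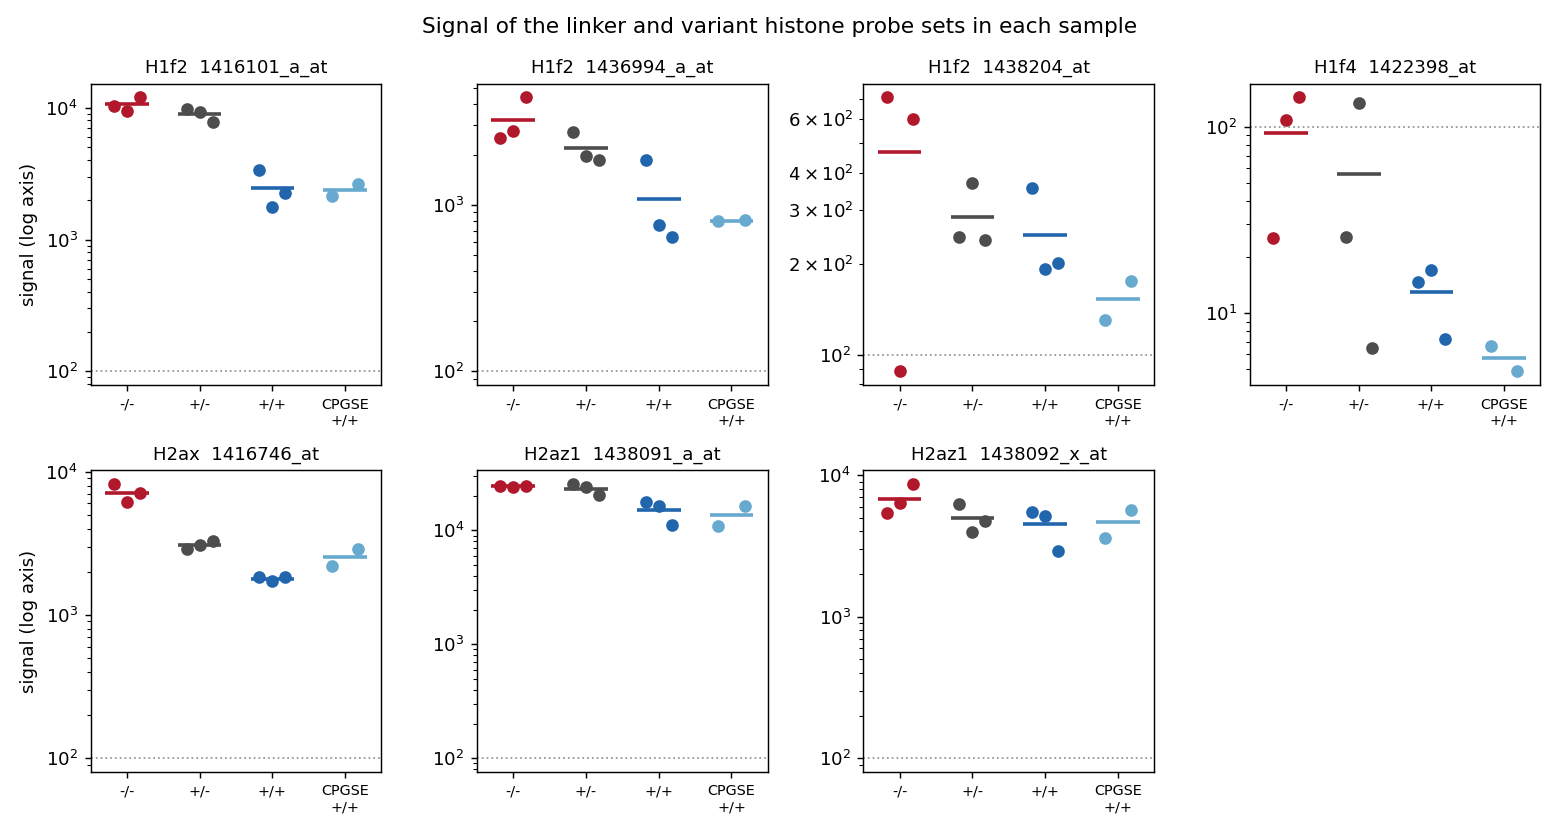
Signal of the 7 single-gene probe sets in each of the 11 samples, on a log axis, with 1 point per sample, a bar at each group's mean and a dotted line at a signal of 100. H2ax falls from -/- over +/- to +/+ without overlap within OGCsort, H1f2 1416101_a_at is high in -/- and +/- and low in both +/+ groups, and H1f4 stays near or under 100.

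H2ax, the variant of the DNA damage response, showed another order, with -/- apart from all other groups. Probe set 1416746_at read 8199, 6172 and 7049 in -/-, 2866, 3080 and 3266 in +/-, 1826, 1726 and 1830 in OGCsort +/+, and 2208 and 2901 in CPGSE. Every -/- sample lay above every other sample, the +/- samples lay above the OGCsort +/+ samples, and CPGSE overlapped the +/- group. The means were 7140 ± 1017 (SD, n = 3) for -/-, 3071 ± 200 (n = 3) for +/-, 1794 ± 59 (n = 3) for the OGCsort +/+ samples and 2555 ± 490 (n = 2) for the CPGSE samples. The difference was -1.96 (SE 0.20) for OGCsort +/+ minus -/-, 3.90-fold lower, and -1.20 (SE 0.20) for +/- minus -/-, 2.30-fold lower. The step from +/- to OGCsort +/+ was -0.76 (SE 0.20), 1.70-fold lower. CPGSE differed from -/- by -1.47 (SE 0.22) and from +/- by -0.27 (SE 0.22). Next to H1f2 1416101_a_at, H2ax had the larger difference between -/- and +/- and the smaller one between +/- and OGCsort +/+, while on H1f2 1438204_at the latter was -0.19, smaller than that of H2ax. These differences between the genes were not tested.

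H2az1, the gene of H2A.Z, was bright in every sample. For OGCsort +/+ minus -/-, all its probe sets differed less than H2ax or the brighter probe sets of H1f2. The dim H1f2 1438204_at, at -0.49, differed less than any H2az1 probe set. The brightest H2az1 probe set, 1438091_a_at, read 24754, 23985 and 24605 in -/-, 25592, 23885 and 20372 in +/-, 17682, 16389 and 11202 in OGCsort +/+, and 10908 and 16406 in CPGSE. The -/- and +/- groups overlapped, and all of their samples lay above all +/+ samples, as on the brighter probe sets of H1f2. The difference was -0.72 (SE 0.25) for OGCsort +/+ minus -/-, 1.65-fold lower, -0.65 (SE 0.25) for +/+ minus +/-, and -0.08 (SE 0.25) for +/- minus -/-. On 1438092_x_at all OGCsort groups overlapped, with 5438 to 8667 in -/-, 3980 to 6210 in +/- and 2903 to 5497 in +/+, and CPGSE at 3611 and 5655. The difference of +/+ minus -/- was -0.62 (SE 0.29) there. It was -0.45 (SE 0.29) for +/- minus -/- and -0.17 (SE 0.29) for +/+ minus +/-, a different order from that of 1438091_a_at. The probe sets that H2az1 shares with Gm8203 gave -1.0 (SE 0.22) on 1416415_a_at and -0.95 (SE 0.33) on 1456032_x_at for the same pair of groups, and which of the genes they measured is unknown. On 1416415_a_at the difference of +/+ minus +/- was -0.87 (SE 0.22), and on 1456032_x_at it was -0.12 (SE 0.33).

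Counted over the 7 single-gene probe sets, 5 were lower in OGCsort +/+ than in -/- with no overlap of samples, where 18.4% of all probe sets were lower without overlap. Between +/- and -/- the count was 1 (background 15.2%), and between +/+ and +/- it was 4 (background 6.85%). Since these contrasts led to the choice of genes, nothing is read from the counts. The 5 include H1f4, whose +/+ signals were all near background. Over the 6 probe sets other than H1f4, left out after its values were seen, the median difference was -1.19 for +/+ minus -/-, against -0.10 over all probe sets. It was -0.37 for +/- minus -/-, against -0.05, and -0.70 for +/+ minus +/-, against -0.03. The comparisons share samples: the -/- samples serve in both comparisons with -/-, and the OGCsort +/+ samples in both comparisons of +/+.

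**Figure D3:**
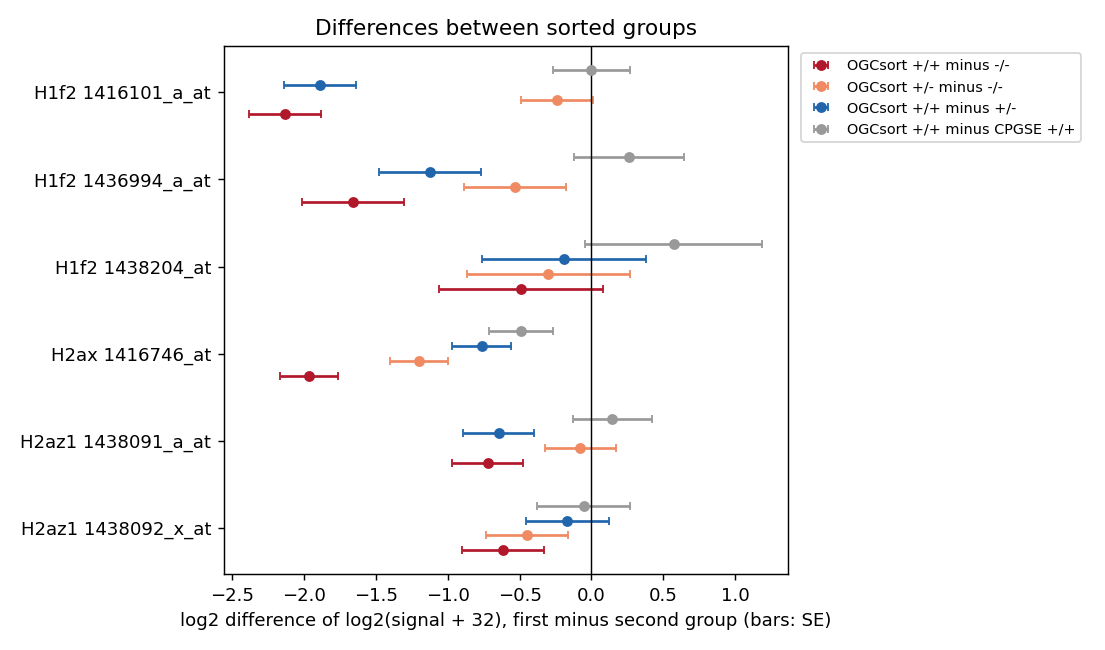
Differences between groups in log2(signal + 32) for 6 single-gene probe sets, as points with SE bars, for 4 comparisons; H1f4, which was near background, is left out. For H1f2 1416101_a_at the differences of +/+ from -/- and from +/- are alike, and for H2ax the difference from -/- is the larger.

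Array runs divided the groups on chip A, a run being arrays whose hybridization times, recorded with the wash and stain settings, follow each other without a gap of over 60 minutes. The -/- samples and +/+ 1 and 5 were in 1 run, +/+ 6 and the +/- samples in another, and the CPGSE samples in one of their own. Within the run that held both, the difference of OGCsort +/+ (n = 2) minus -/- (n = 3) was -2.08 for H1f2 1416101_a_at, -1.98 for H2ax and -0.52 for H2az1 1438091_a_at. Within the other mixed run, +/+ 6 alone minus the 3 +/- samples gave -1.98 for H1f2, -0.73 for H2ax and -1.05 for H2az1. No run held both +/- and -/- samples. A fit with the run as a block, which links them only through +/+, gave -0.11 (SE 0.46) for H1f2 1416101_a_at and -1.24 (SE 0.37) for H2ax, while the sign turned for H1f2 1436994_a_at, at 0.32 (SE 0.60), and for H2az1 1438091_a_at, at 0.53 (SE 0.40). It also turned for 1438204_at, 1438092_x_at and 1456032_x_at.

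The comparison of the OGCsort with the CPGSE +/+ samples asked whether the separate sort sets gave like values for cells of the same signs, and it was tested. H1f2 1416101_a_at differed by 0.00 (SE 0.27, limma adjusted p = 1.00), 1436994_a_at by 0.26 (SE 0.38, limma adjusted p = 0.971) and 1438204_at by 0.57 (SE 0.62, limma adjusted p = 0.950). H2ax was lower in OGCsort without overlap, at 1726 to 1830 against 2208 and 2901, as were 11.6% of all probe sets, but its difference of -0.49 (SE 0.22) did not pass limma's test (adjusted p = 0.833). H1f2 1438204_at, at 193 to 356 against 130 and 176, and H1f4 were higher in OGCsort without overlap, as were 15.3% of all probe sets. H2az1 1438091_a_at differed by 0.15 (SE 0.28, limma adjusted p = 0.979) and 1438092_x_at by -0.05 (SE 0.32, limma adjusted p = 0.995). H1f4 was under 100 in all 5 of these samples. In limma, 0.0% of the 40405 probe sets passed in this comparison (0 by adjusted p, 2419 at an unadjusted p under 0.05), so a miss here does not show that the levels were alike. Sort set and array run cannot be told apart on chip A.

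Differences between -/- and the CD45+ groups were also measured in core histones. Core histone genes, which form the octamer and are expressed with DNA replication, are nearly identical in sequence, and 18 probe sets were assigned to several of them at once, of which 17 were tested. In OGCsort +/+ against -/-, 8 of the 17 were lower and 0 higher by limma's adjusted p, where 16.8% of all probe sets were called, 7.12% lower and 9.69% higher, and the median difference was -1.47. In +/- against -/-, 8 were lower and 0 higher (background 13.8% called, 5.87% lower and 7.91% higher), with a median of -1.86. A probe set assigned to 10 H2A genes, 1438009_at, read 13443, 16848 and 17505 in -/-, 2548, 2314 and 2415 in +/-, 1446, 1531 and 1002 in OGCsort +/+, and 804 and 1696 in CPGSE. The -/- samples lay far above all others, and +/+ was 11.9-fold lower than -/- (limma adjusted p = 2.74e-07). An H2B probe set, 1452540_a_at, was 16.4-fold lower (limma adjusted p = 1.73e-06) and an H3 probe set, 1460314_s_at, 13.8-fold lower (limma adjusted p = 4.05e-06) in +/+ than in -/-. In +/- they were 9.89-fold and 10.4-fold lower than in -/-. In these 3 probe sets, as in H2ax, every -/- sample lay above every other sample, whereas in H1f2 the +/- signals overlapped -/-. These 3 had the smallest adjusted p of the 17 in +/+ against -/-, so their separation from -/- follows from that choice. Of the other shared probe sets, some overlapped between +/- and -/-, such as 1440330_at and 1442051_at, and some did not, such as 1422948_s_at. The contrast with H1f2 was not tested. With the run as a block (on chip B, run and fluidics station), 6 of the 8 stayed lower in +/+ and 3 in +/-. The primer of the labelling reaction is not given, so how much of the histone mRNA these signals cover is unknown.

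Of 7 core histone genes with a probe set of their own, 4 were lower and 0 higher in +/+ than in -/-, where 19.8% of 16997 named genes were called and 8.72% were lower, and 2 were lower in +/- (background 16.8% called and 7.25% lower). The list's medians were -1.05 and -0.81, against -0.10 and -0.05 over all genes. H2bc22 fell by 2.39 on the log2 scale (SE 0.40, limma adjusted p = 0.000844) and H3c4 fell by 2.02 (SE 0.36, limma adjusted p = 0.0014) in +/+ against -/-. The 2 calls in +/-, H3c4 and H2bc22, were lost when some single samples were left out. The remaining calls in +/+, H2bc21 at -1.05 (limma adjusted p = 0.0256) and H2bc18 at -1.26 (limma adjusted p = 0.0375), were lost when single samples were left out, with adjusted p-values up to 0.0878 and 0.135, and with the run as a block (0.0917 and 0.128). H2bc21 was also lost without the mean-variance trend (adjusted p = 0.0775) and with CPGSE in place of OGCsort +/+ (adjusted p = 0.263), and H2bc18 without a filter (adjusted p = 0.0513). A further probe set of H2bc21 was not called in +/+ against -/- (-0.56, limma adjusted p = 0.416). H2ac19 was not called there on the probe set counted here (-1.01, limma adjusted p = 0.0656). A further probe set of H2ac19, left out of the count, was lower (-1.25, limma adjusted p = 0.00729). Probes for 1 of these genes may also bind transcripts of its near copies.

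**Figure D4:**
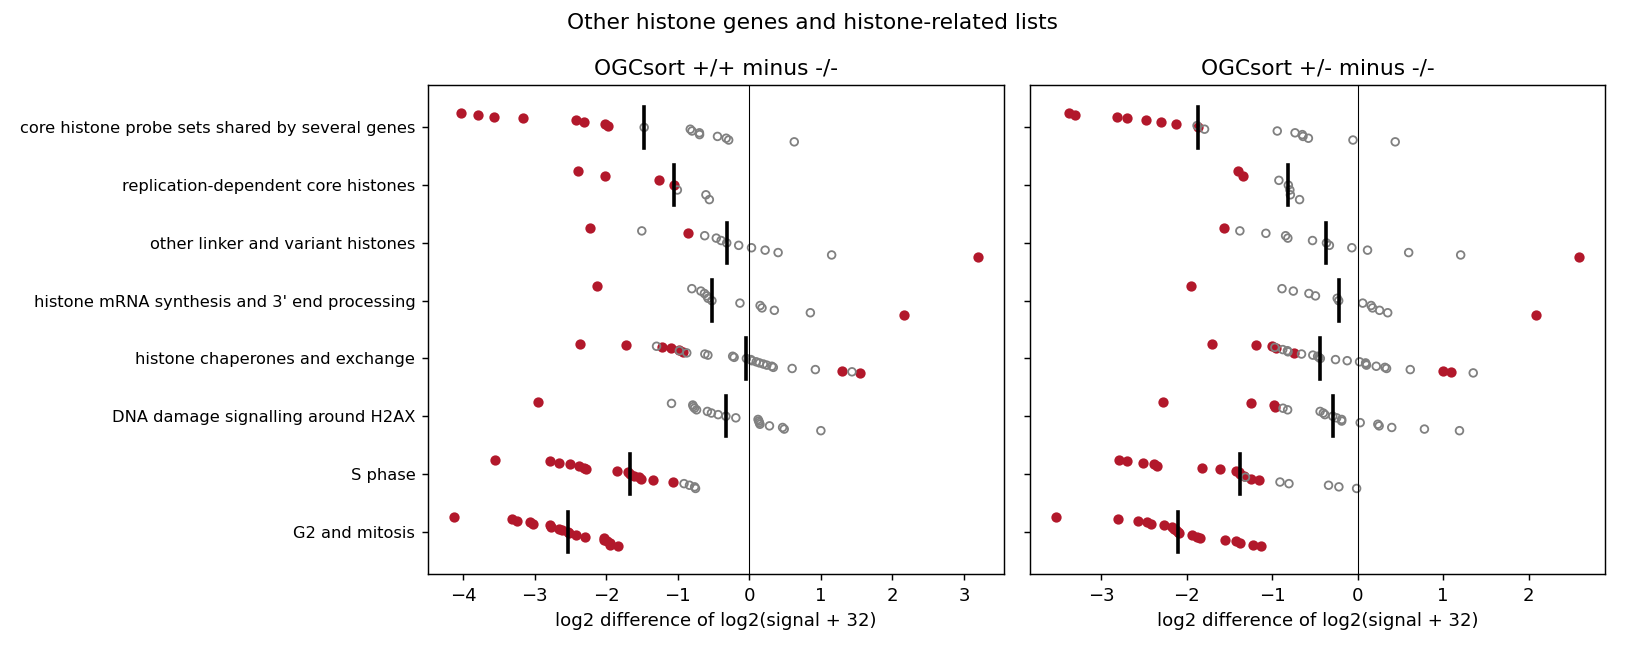
Difference in log2(signal + 32) of each gene, or of each shared probe set in the top row, for OGCsort +/+ minus -/- (left) and +/- minus -/- (right); filled red points have a limma adjusted p under 0.05, open points do not, and the vertical bars are medians. The core histone, S phase and G2 and mitosis genes lie to the left of 0, while the shared core histone probe sets reach up to 0.63 on the left panel and 0.44 on the right, and the other lists spread to both sides of 0.

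Among 16 further linker and variant histones, 13 were tested, and 2 were lower and 1 was higher in +/+ than in -/-, where 19.8% of named genes were called, a share near that of the list. Cenpa, the H3 variant of the centromere, averaged 3301 ± 676 (SD, n = 3) for -/- and 673 ± 105 (n = 3) for +/+, 4.70-fold lower (limma adjusted p = 3.23e-05), though its other probe sets, both on chip B, were not called (-0.55 and -0.69). H2az2, the second H2A.Z gene, gave -0.86 (SE 0.27, limma adjusted p = 0.0403), close to the -0.72 of H2az1 1438091_a_at. That call was lost when any 1 sample of these groups was left out, with adjusted p-values up to 0.140, and with median centring (adjusted p = 0.0678), without the mean-variance trend (0.112), with the run as a block (0.156) and with CPGSE in place of OGCsort +/+ (0.382). A further probe set of H2az2, on chip B, was not called in +/+ against -/- (-0.77, limma adjusted p = 0.299). Macroh2a1, the large H2A variant of silent chromatin, ran the opposite way. Its signals were 2899, 772 and 504 in -/-, 5087, 6149 and 8725 in +/-, 9894, 10107 and 9533 in OGCsort +/+, and 6994 and 8371 in CPGSE. It was 9.13-fold higher in +/+ than in -/- (limma adjusted p = 0.000275), and 15.0-fold higher without -/- 4, its highest -/- sample. In +/- against -/-, 1 of the 13 was lower, Cenpa (-1.56, limma adjusted p = 0.000714), and 1 higher, Macroh2a1 (2.59, limma adjusted p = 0.00164), where 16.8% of named genes were called.

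Of 13 genes for histone mRNA synthesis and 3′ end processing, 1 was lower and 1 was higher in each CD45+ group than in -/-, no larger a share than over all named genes (19.8% called in +/+ and 16.8% in +/-). Slbp, which binds the stem-loop at the end of replication-dependent histone mRNA, read 3432, 4779 and 5027 in -/-, 741, 1160 and 1563 in +/-, 1098, 1017 and 816 in OGCsort +/+, and 1206 and 1862 in CPGSE, with no overlap between -/- and the rest. It was 4.38-fold lower in +/+ (limma adjusted p = 0.00014) and 3.86-fold lower in +/- (limma adjusted p = 0.000373). Cpsf3, the nuclease that cuts histone pre-mRNA and polyadenylated pre-mRNA alike, rose by 2.16 in +/+ (SE 0.32, limma adjusted p = 0.000376) and by 2.09 in +/- (SE 0.32, limma adjusted p = 0.000646). Npat, the coactivator of replication-dependent histone genes, gave -0.59 in +/+ and did not pass (limma adjusted p = 0.362).

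Of 27 tested histone chaperones and exchange factors, 6 were lower and 2 higher in +/+ than in -/-, and 5 were lower and 2 higher in +/-, with medians of -0.04 and -0.44. Over all named genes 8.72% were lower in +/+ and 7.25% in +/-, and 19.8% and 16.8% were called in either direction. Asf1b, a chaperone of newly made H3 and H4 in dividing cells, was 5.18-fold lower in +/+ (limma adjusted p = 6.56e-05) and 3.26-fold lower in +/- (limma adjusted p = 0.00111). Anp32e, which removes H2A.Z from chromatin, was 3.29-fold lower in +/+ (limma adjusted p = 0.000343) and 2.28-fold lower in +/- (limma adjusted p = 0.00588). For +/- minus -/-, H2az1 itself differed by -0.08 (SE 0.25) on 1438091_a_at and by -0.45 (SE 0.29) on 1438092_x_at. Its shared probe sets gave -0.13 (SE 0.22) on 1416415_a_at and -0.83 (SE 0.33) on 1456032_x_at. Set and Npm1, acidic chaperones with other roles besides, rose by 1.30 (limma adjusted p = 0.0012) and 1.55 (limma adjusted p = 0.0024) in +/+. Of 19 tested genes of DNA damage signalling around H2AX, 1 was lower and 0 higher in +/+ (background 8.72% lower), and 4 were lower and 0 higher in +/- (background 7.25% lower). Brca1, the repair factor recruited to chromatin marked by phosphorylated H2AX, was 7.75-fold lower in +/+ (limma adjusted p = 7.32e-05) and 4.84-fold lower in +/- (limma adjusted p = 0.00074). The ubiquitin ligases Rnf168 and Rnf8 and the break sensor Nbn were the other calls in +/-, at -0.98, -0.97 and -1.25, with limma adjusted p from 0.0279 to 0.0409, and each was lost when some single samples were left out.

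Proliferation genes moved with these groups. Of 19 tested S phase genes, 15 were lower and 0 higher in +/+ than in -/-, and 13 were lower and 0 higher in +/-, with medians of -1.67 and -1.38, where 8.72% and 7.25% of named genes were lower. Of 19 genes of G2 and mitosis, 19 were lower in each comparison, with medians of -2.54 and -2.10 and the same background. The summed S phase signal was 74021 to 109523 in -/-, 26233 to 41335 in +/-, 22244 to 28612 in OGCsort +/+ and 20475 to 31047 in CPGSE. The part of cycling cells in the histone differences was not tested. In +/+ against +/- limma called 0.109% of all probe sets, and 0 genes of these 7 histone and cell cycle lists, and against CPGSE it called 0 of them. With the run as a block, the calls in +/- against -/- fell to 3 S phase and 3 G2 and mitosis genes and to 0 in the other 5 lists, with adjusted p = 0.186 for Slbp, 0.298 for Asf1b and 0.0722 for Brca1. In +/+ against -/- that block kept the calls of Slbp, Asf1b, Anp32e, Brca1, Cenpa and Macroh2a1, and it ended those of H2bc21, H2bc18 and H2az2.

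The genes most like each member over the 11 samples were sought among 15251 named genes by Pearson's r of the log2 values. For H2ax these were E2f8, an atypical E2F repressor (r = 0.97), Mmadhc (r = 0.97) and R3hdm4 (r = 0.97). E2f8 averaged 12655 in -/-, 1874 in +/-, 616 in OGCsort +/+ and 1296 in CPGSE, the same order of groups as H2ax over a wider range. For H2az1 1438091_a_at they were Clca3a2 (r = 0.94), Dcpp3 (r = 0.93) and Mpp5 (r = 0.93). The same Dcpp3 (r = 0.95) and Clca3a2 (r = 0.93) headed the list for H1f2 1416101_a_at, a probe set looked up for its brightness after its values were seen. Clca3a2 was dim, with a mean of 100.5 in -/- and 15.9 in CPGSE. For the dim H1f2 1438204_at, which the rule takes for the gene, they were Mfsd4b2 (r = 0.90), Hhatl (r = 0.89) and Krtap6-2 (r = 0.88). For H1f4, itself near background, they were Hand2, Msln and Slc66a2 (r = 0.92 each). Among the members, H1f2 1416101_a_at and H2ax ran together at r = 0.80. All these correlations are descriptions over samples that share their groups and array scaling.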

How the data were processed

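RNA of 11 sorted samples was measured on 22 arrays, 1 of each chip per sample. The deposited tables hold 1 linear intensity (signal) for each probe set, made with MAS5 per the submitters' processing notes. The authors scaled every array by 1 factor, since each had the same trimmed mean, with 2% removed at each end. Neither the primer of the labelling reaction nor the MAS5 version is given in the sources used here. How far the signals cover replication-dependent histone mRNA, which ends in a stem-loop, is therefore unknown, and they are not read as its total levels. Run records, per the file headers, served for array runs, from the hybridization time listed with the wash and stain settings (a gap of over 60 minutes starts a new one), for the fluidics station and to tell which sign of the sort is CD45.

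Here arrays were rescaled to a trimmed mean of 500, taken as log2(signal + 32), and filtered at a signal above 100 on at least 2 of 11 arrays, which kept 19177 probe sets of chip A and 21228 of chip B. Control probe sets were left out. Genes came from the platform annotation, where 20380 of the 22626 chip A probe sets carry 1 gene, 691 several and 1555 none, and 14661 of the 22511 on chip B carry 1, 245 several and 7605 none. Groups were compared with limma 3.58.1 in R 4.3.3 (lmFit, eBayes with trend), each chip by itself, with Benjamini-Hochberg adjustment over both chips and a threshold of 0.05. The OGCsort comparisons used 9 samples, the comparison with CPGSE all 11. A gene outside the 6 is represented by 1 probe set (chip A first, then a name without a letter before _at, then the highest mean). Up to 4 genes a list with the smallest adjusted p are named. Npat, the chip B probe sets of Cenpa and the further probe sets of H2az2, H2bc21 and H2ac19 were added after their values were seen. Folds come from log2(signal + 32), so they understate changes of dim probe sets. The script was tested on simulated data. The members and lists were chosen with earlier results of these data known.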

Additional observations from a re-analysis of the deposited data

How the results depend on the processing

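Other pseudocounts (16 and 64), no filter, quantile normalization, median centring, no mean-variance trend, all 11 samples in the fit, CPGSE in place of OGCsort +/+, the array run (on chip B with the fluidics station) as a block and leaving out each sample were tried. No paired analysis was possible because the groups compared share fewer than 2 sort numbers. The number of probe sets called in +/+ against -/- went from 6789 to 3965 with the run block and to between 4665 (without +/+ 5) and 7225 (without -/- 4) with samples left out. In +/- against -/- it went from 5569 to 506 with the block, where the share of higher calls was 37.4%, and to between 3772 (without +/- 7) and 6242 (without -/- 4). In +/+ against +/-, 44 calls (30 higher, 14 lower) became 31 with median centring (18 higher, 13 lower), 20 with a pseudocount of 16, 70 with 64, 23 without a filter, 19 without the trend, 6 with the block, 75 with all 11 samples, 126 with CPGSE, and 9 (without +/- 1) to 36 (without +/+ 1) with samples left out. Against CPGSE, 0 calls became at most 3 (without +/+ 1). H1f2 1416101_a_at stayed between -2.38 and -1.92 for +/+ minus -/- over 15 settings, and H2ax between -2.06 and -1.47. In +/- minus -/- the block turned the sign of H2az1 1456032_x_at, to 0.0062, and of the H2B probe set 1449482_at, shared by several genes, to 0.29. The cause of these changes was not tested. In +/+ against CPGSE the sign of H1f2 1416101_a_at changed with the sample left out, from -0.25 to 0.21.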
